A study of Mus musculus with 6 samples.

Results

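The H2-Q genes are a cluster of nonclassical major histocompatibility complex (MHC) class I genes on mouse chromosome 17. This account follows 7 of them, H2-Q1, H2-Q2, H2-Q4, H2-Q5, H2-Q6, H2-Q7 and H2-Q10, among the 34866 genes of a table of estimated read counts. Genes were chosen by family name because H2-Q6 and H2-Q7 had differed between knockout and wild type in these same libraries. Their differences between the genotypes are therefore given as a description and carry no test of their own. All 7 passed the filter on low counts that left 13374 genes, and each passed in both groups. The table holds 8 genes with an H2-Q symbol. The eighth, the pseudogene H2-Q3, had 2, 1 and 0 counts in Il1rnKO 1, 2 and 3 and 0 counts in each wild-type library. No row had the symbol H2-Q8 or H2-Q9, so these were not analysed here. How any reads from them were counted is not given in the sources used here.

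The cells were effector memory CD4+ T cells of the spleen, helper cells that have met antigen before, sorted while alive. Il1rn knockout mice gave 3 libraries (Il1rnKO 1 to 3), and 3 others (WT 1 to 3) were wild type. The product of Il1rn is a secreted protein that blocks the interleukin-1 receptor. The labels give no strain, age, sex, allele or treatment, and they do not say whether libraries of a group came from separate animals or from pools. Any p-value therefore measures the spread between these libraries, which may be technical.

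Class I molecules are membrane proteins that pair with beta-2 microglobulin and hold peptides for inspection by T cells and natural killer cells. The classical molecules H2-K and H2-D are made by nearly all cells, whereas the nonclassical H2-Q, H2-T and H2-M molecules vary less between individuals and have narrower roles. H2-Q6 and H2-Q7, together with close copies, encode the Qa-2 antigen of mouse lymphocytes, which is held in the membrane by a glycosylphosphatidylinositol (GPI) anchor or is secreted. H2-Q10 encodes a soluble molecule known from liver and serum, and the product of H2-Q4 is also secreted. H2-Q5 is annotated as a polymorphic pseudogene, a gene intact in some genomes and disrupted in others. Inbred mouse strains differ in which H2-Q genes they carry, and with no strain in the labels, strain and knockout cannot be told apart in these libraries.

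The 7 genes lie on the plus strand of chromosome 17 (GRCm38). In order they are H2-Q1 (ENSMUSG00000079507.10, 35320405 to 35325099), H2-Q2 (ENSMUSG00000091705.8, 35342242 to 35346762), H2-Q4 (ENSMUSG00000035929.11, 35379617 to 35385290) and H2-Q5 (ENSMUSG00000055413.12, 35394126 to 35397800). H2-Q6 (ENSMUSG00000073409.12, 35424850 to 35430055), H2-Q7 (ENSMUSG00000060550.15, 35439155 to 35443773) and H2-Q10 (ENSMUSG00000067235.14, 35470089 to 35474563) follow. The promoters of H2-Q6 and H2-Q7, which were higher in the knockout, are shown beside those of H2-Q4 and H2-Q10, whose knockout and wild-type levels overlapped. Each runs from 250 bases before to 50 bases after the RefSeq start, on the plus strand of GRCm38.p6, 5′ to 3′. Capitals mark matches to 6 motifs of class I promoters, searched on both strands: the general kappaB consensus site, GGGNATTCC (a narrower kappaB core), TTTCNNTTC (the core of an interferon response element), TGACG (the core of a cyclic AMP response element), CCAAT and TATAAA. Matches to the narrower core lie within or across those to the consensus, and no other motifs overlapped.
H2-Q6, chr17:35424600-35424899: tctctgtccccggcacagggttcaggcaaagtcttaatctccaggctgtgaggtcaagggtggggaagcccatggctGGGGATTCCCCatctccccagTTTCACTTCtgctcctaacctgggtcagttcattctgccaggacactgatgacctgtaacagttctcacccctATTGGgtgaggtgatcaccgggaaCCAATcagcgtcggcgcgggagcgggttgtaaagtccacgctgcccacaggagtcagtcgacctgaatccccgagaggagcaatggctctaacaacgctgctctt
H2-Q7, chr17:35438905-35439204: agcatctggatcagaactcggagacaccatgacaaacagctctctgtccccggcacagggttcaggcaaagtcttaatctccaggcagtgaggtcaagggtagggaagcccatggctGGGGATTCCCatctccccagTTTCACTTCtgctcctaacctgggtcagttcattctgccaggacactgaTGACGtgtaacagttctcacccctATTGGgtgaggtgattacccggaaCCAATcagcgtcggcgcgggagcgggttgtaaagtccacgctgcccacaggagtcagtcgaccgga
H2-Q4, chr17:35379367-35379666: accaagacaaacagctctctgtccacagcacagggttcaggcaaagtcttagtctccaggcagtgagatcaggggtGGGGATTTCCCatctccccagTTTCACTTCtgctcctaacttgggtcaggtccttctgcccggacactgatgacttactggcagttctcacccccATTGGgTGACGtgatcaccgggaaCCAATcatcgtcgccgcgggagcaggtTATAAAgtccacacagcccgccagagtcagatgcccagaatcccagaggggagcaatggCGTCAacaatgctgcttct
H2-Q10, chr17:35469839-35470138: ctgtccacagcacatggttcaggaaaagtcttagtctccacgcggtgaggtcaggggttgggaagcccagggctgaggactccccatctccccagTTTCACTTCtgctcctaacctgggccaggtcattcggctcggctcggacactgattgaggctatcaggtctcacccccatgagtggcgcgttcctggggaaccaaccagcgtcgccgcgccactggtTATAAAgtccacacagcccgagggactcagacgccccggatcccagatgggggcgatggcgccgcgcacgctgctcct

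H2-Q6 and H2-Q7 had nearly the same promoter, with 97.7% identity over 260 aligned bases, gaps not counted. Identity to H2-Q4 was 86.6% for H2-Q6 and 87.3% for H2-Q7, and identity to H2-Q10 was 79.0% and 80.8%. The kappaB consensus was matched in the H2-Q6, H2-Q7 and H2-Q4 windows and not in those of H2-Q2 and H2-Q10. Among all 32851 promoter windows of RefSeq genes, 8.46% held it. The narrower core, GGGNATTCC, was matched in H2-Q6 and H2-Q7 only of the 5 members' windows, against 0.776% of all windows. That spelling was taken from the sequence of H2-Q6 and H2-Q7 and shortened after longer ones had been tried. Its matches in these nearly identical windows were therefore set beforehand, and the share of all windows is no measure of enrichment. Its absence from H2-Q4, whose consensus match has other letters, rests on the spelling too. TATAAA had the opposite distribution, with a match in H2-Q2, H2-Q4 and H2-Q10 and none in H2-Q6 or H2-Q7, against 13.6% of all windows. The interferon element core was matched once in each of the 4 printed windows, not in H2-Q2, and in 7.52% of all windows. TGACG was matched in H2-Q7 and H2-Q4, against 20.8% of all windows, and CCAAT in all but H2-Q10, against 37.4%. The motifs were chosen after the fold changes and the sequences had been seen, and a match is no evidence of binding. The H2-Q2 window (chr17:35342057-35342356), with 62.7% identity to H2-Q7, is not printed, and no window of H2-Q1 or H2-Q5 was used.

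The members resemble each other in their coding sequence as well. Over the 21 pairs of members, identity of the longest annotated coding sequences was 85.6% to 97.0%. H2-Q5, H2-Q6 and H2-Q7 formed the closest group, with 94.9% between H2-Q5 and H2-Q6, 95.4% between H2-Q6 and H2-Q7, and 97.0% between H2-Q5 and H2-Q7. None of the other 18 pairs was above 90.8%. H2-Q4 was about as close to the classical gene H2-D1 (90.4%) as to H2-Q7 (90.8%).

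A read that fits several members cannot be placed by its sequence, so the shared stretches bear on the values of the members that hold them. The longest coding run common to H2-Q6 and H2-Q7 is 265 bases long and covers coding bases 605 to 869 of both. In H2-Q7 it lies in exons 3 and 4 of the transcript, between 35440179 and 35442525 of chromosome 17, with an intron in between. It is printed because reads of 150 bases that fall within it belong equally to both genes.
H2-Q6 and H2-Q7, shared coding run: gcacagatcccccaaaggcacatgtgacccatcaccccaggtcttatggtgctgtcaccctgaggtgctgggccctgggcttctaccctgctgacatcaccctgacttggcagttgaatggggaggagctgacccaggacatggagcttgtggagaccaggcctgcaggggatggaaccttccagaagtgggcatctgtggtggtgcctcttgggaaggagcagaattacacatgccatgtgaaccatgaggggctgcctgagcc

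Outside that run the longest coding transcripts of the members could mostly be told apart. Of all 150-base windows of the longest coding transcript, 11.6% in H2-Q7, 5.99% in H2-Q6, 4.64% in H2-Q1 and 2.002% in H2-Q5 occurred unchanged in a transcript of another chromosome 17 gene. In the longest coding transcripts of H2-Q2, H2-Q4 and H2-Q10 no window did. Other annotated transcripts of H2-Q2 did hold shared stretches, since 52 windows of H2-Q1 occurred in them. Single mismatches were not allowed for in this count, and the second read of a pair can place a read that the first cannot. The H2-Q5 transcript used held only 998 coding bases, so its untranslated ends were not counted. Genes without a row, such as H2-Q8 and H2-Q9, could not enter the count either. The deposited values of 6 members had decimals in all 6 libraries, and those of H2-Q4 in 5 of 6, so some reads had been divided between features.

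Il1rn itself had 1, 3 and 1 counts in Il1rnKO 1, 2 and 3 and 6, 10 and 0 counts in WT 1, 2 and 3, so the labels could not be checked by it. Library totals lay between 14102183 and 17677217 counts. All 8 markers of CD4 T cells were detected, and Cd4 was at 1034 to 1218 CPM (counts scaled to a common library total, here the plain total) in knockout and 933 to 1251 CPM in wild type. Summed neutrophil markers were at 40.3 to 109 CPM in knockout and 4.11 to 7.35 CPM in wild type, with all 8 tested of 11 listed positive and 1, Ngp, past the test. Summed markers of monocytes, macrophages and dendritic cells were at 23.2 to 27.0 CPM in knockout and 7.16 to 17.1 CPM in wild type, with 4 tested of 10 listed, all positive. In that list only Lyz2 had groups that did not overlap, at 8.48 to 18.1 CPM in knockout and 0.496 to 8.03 CPM in wild type. The groups of every other listed gene overlapped. Summed erythroid and platelet markers were at 7.47 to 11.02 CPM in knockout and 3.85 to 6.22 CPM in wild type, with 3 of 4 tested of 7 listed positive, while those of B cells and of CD8 T and natural killer cells overlapped. Klra8 of natural killer cells and Pf4 and Ppbp of platelets were at 0 in every library. The part of these cells in the H2-Q levels was not tested, and in bulk RNA more cells of a type and more RNA per cell cannot be told apart.

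H2-Q7 and H2-Q6, the Qa-2 genes, were higher in the knockout by more than the spread between libraries. Values from here on are CPM scaled by the trimmed mean of M values (TMM), a correction for library composition. H2-Q7 was at 792, 858 and 653 CPM in Il1rnKO 1, 2 and 3, against 290, 283 and 312 CPM in WT 1, 2 and 3. Every knockout library thus stood well above every wild-type library, and Il1rnKO 3 was the lowest of the knockout. The means were 768 ± 104 CPM in knockout and 295 ± 15.3 CPM in wild type (SD, n = 3 each), a log2 fold change of 1.38 (SE 0.17).

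H2-Q6 was at 428, 367 and 362 CPM in Il1rnKO 1, 2 and 3, against 159, 155 and 189 CPM in WT 1, 2 and 3. Its groups did not overlap either, and Il1rnKO 1 was the highest library. Mean H2-Q6 was 386 ± 36.5 CPM in knockout and 168 ± 18.3 CPM in wild type (SD, n = 3 each), a log2 fold change of 1.20 (SE 0.16). The ratio of H2-Q7 to H2-Q6 was 1.81 to 2.34 in knockout libraries and 1.65 to 1.82 in wild-type libraries, so the proportion between the copies overlapped between genotypes.

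H2-Q5, the annotated pseudogene whose coding sequence is closest to H2-Q7, had a smaller difference of the same sign. Its levels were 185, 213 and 161 CPM in Il1rnKO 1, 2 and 3, against 145, 124 and 121 CPM in WT 1, 2 and 3. The groups did not overlap, and the gap between Il1rnKO 3 and WT 1 was small beside the spread within the knockout. The log2 fold change of H2-Q5 came to 0.52 (SE 0.16), which was no call over all genes. The 3 members whose groups did not overlap were the 3 closest in coding sequence, and H2-Q6 and H2-Q7 among them were why the family was chosen. Every knockout library stood above every wild-type library for 5.78% of all genes tested. The part of reads shared among these 3 members in the H2-Q5 difference was not tested.

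**Figure D1:**
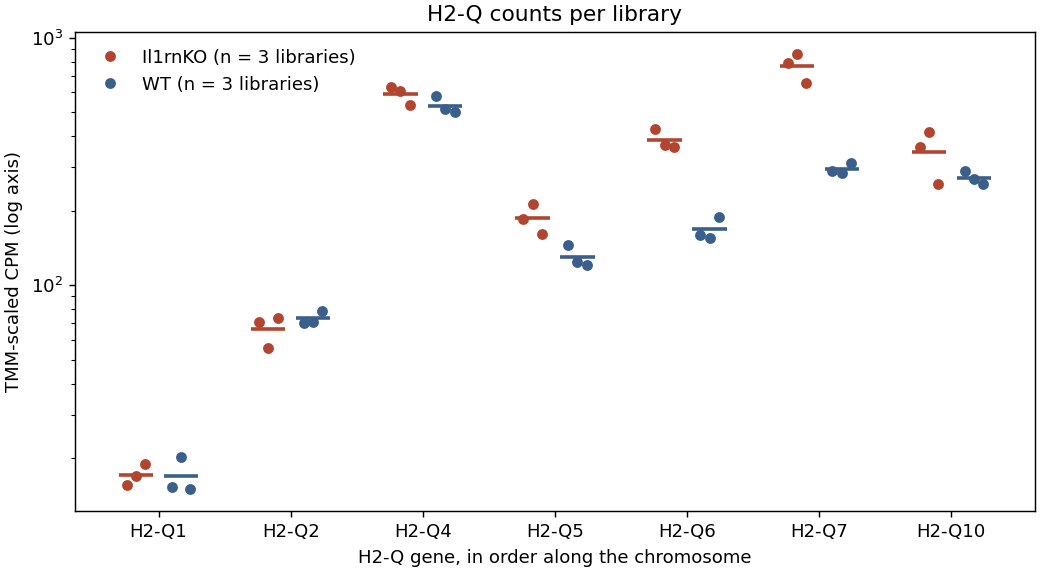
TMM-scaled CPM (log axis) of the 7 H2-Q genes, in their order along chromosome 17, in the 3 Il1rnKO libraries (red, left) and the 3 WT libraries (blue, right); each point is a library and each bar a group mean. H2-Q5, H2-Q6 and H2-Q7 have no overlap between the groups, with H2-Q7 at 653 to 858 CPM in knockout and 283 to 312 CPM in wild type.

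H2-Q4 and H2-Q10, which encode secreted molecules, had overlapping groups. H2-Q4 was at 629, 609 and 536 CPM in Il1rnKO 1, 2 and 3, against 578, 513 and 502 CPM in WT 1, 2 and 3. Il1rnKO 3 lay below WT 1, and the log2 fold change was 0.15 (SE 0.16). H2-Q10 was at 361, 415 and 256 CPM in Il1rnKO 1, 2 and 3, against 290, 268 and 256 CPM in WT 1, 2 and 3, a log2 fold change of 0.34 (SE 0.19). Its Il1rnKO 1 and 2 were the highest libraries, while Il1rnKO 3 was level with the lowest wild-type library. It was the lowest knockout library for H2-Q4, H2-Q5, H2-Q6 and H2-Q7 as well. Il1rnKO 3 had 8.34% of its counts from mitochondrially encoded genes, against 3.69% in Il1rnKO 1 and 3.44% in Il1rnKO 2, and the wild-type libraries had 5.68% to 8.92%. The part of that share in the H2-Q levels was not tested.

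The centromere-proximal members, H2-Q1 and H2-Q2, were the least abundant and had overlapping groups. H2-Q2 was at 71.2, 55.6 and 73.4 CPM in Il1rnKO 1, 2 and 3, against 70.4, 71.0 and 78.6 CPM in WT 1, 2 and 3. H2-Q1 was at 15.6 to 18.97 CPM in knockout and 15.02 to 20.3 CPM in wild type. Their log2 fold changes were -0.14 (SE 0.16) for H2-Q2 and 0.024 (SE 0.21) for H2-Q1. H2-Q1 changed sign with the library left out, between -0.076 and 0.18, so no direction is given for it.

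In the fit across all genes, edgeR's quasi-likelihood test with Benjamini-Hochberg adjustment called 2 of the 7 members, H2-Q6 and H2-Q7, both higher in the knockout. Over all genes tested, 0.0523% were called in either direction and 0.0299% were called higher. Groups did not overlap, with every knockout library above every wild-type library, for 3 members, and for 5.78% of all genes tested. No member had every knockout library below every wild-type library, which held for 3.63% of all genes tested. Of the members, 6 had positive log2 fold changes and 1 a negative one, with a median of 0.34, beside 0.02 over all genes tested. These counts describe genes picked for their difference and support nothing further.

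Both calls were lost when any one of Il1rnKO 1, Il1rnKO 2, WT 1, WT 2 or WT 3 was left out, and kept without Il1rnKO 3. The log2 fold changes themselves moved little in those fits, from 1.27 to 1.48 for H2-Q7 and from 1.10 to 1.29 for H2-Q6. In the 8 fits with other settings and all 6 libraries, both genes were called each time. H2-Q5 was called in none of the 15 fits.

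**Figure D2:**
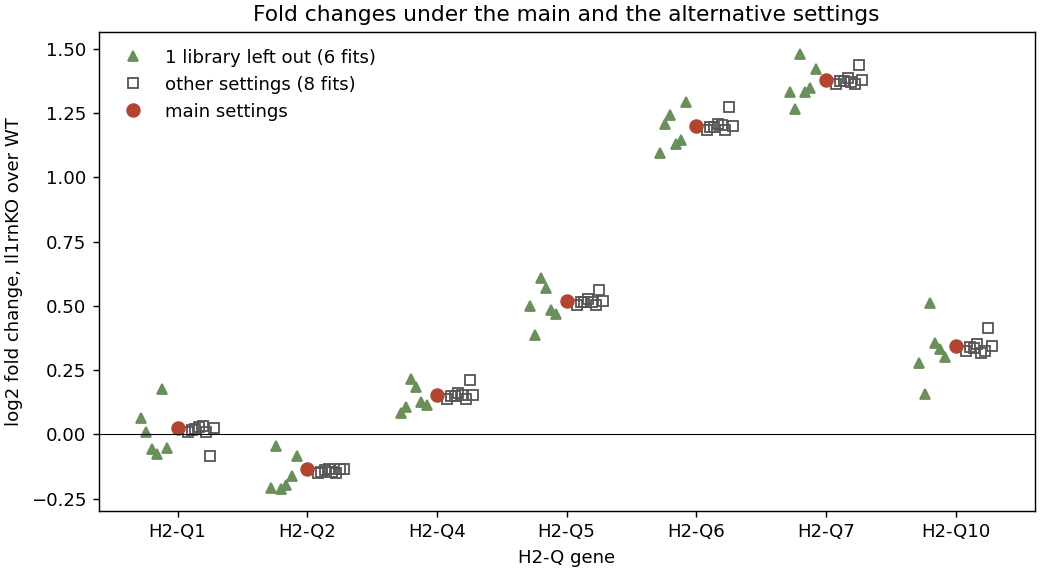
Log2 fold change (Il1rnKO over WT) of each H2-Q gene with the main settings (red circles), with 1 library left out (green triangles, 6 fits) and with other settings (open squares, 8 fits). H2-Q7 and H2-Q6 stay above 1 in every fit, H2-Q1 scatters on both sides of 0, and H2-Q10 runs from 0.16 to 0.51.

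The sum over the family does not depend on how reads were divided among its own members. The 7 members together reached 2481, 2535 and 2060 CPM in Il1rnKO 1, 2 and 3, against 1549, 1434 and 1473 CPM in WT 1, 2 and 3. The knockout libraries all stood above the wild-type libraries, with means of 2359 ± 260 CPM in knockout and 1485 ± 58.4 CPM in wild type (SD, n = 3 each). That is a log2 ratio of 0.67.

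Most of this difference sat in the Qa-2 genes. H2-Q6 plus H2-Q7 averaged 1153 ± 119 CPM in knockout and 463 ± 33.5 CPM in wild type (SD, n = 3 each), which is 79.1% of the difference between the family sums. H2-Q7 alone accounted for 54.1% and H2-Q6 for 25.0%. The other 5 members together averaged 1205 ± 141 CPM in knockout and 1023 ± 67.3 CPM in wild type, and their groups overlapped. When counts were summed before an edgeR fit of all genes, the log2 fold change was 1.32 (SE 0.17) for H2-Q6 plus H2-Q7 and 0.24 (SE 0.18) for the other 5. The sum of H2-Q6 and H2-Q7 does not depend on how reads were divided between these copies.

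The make-up of the family sum separated the genotypes with little spread. H2-Q6 and H2-Q7 supplied 49.1%, 48.3% and 49.3% of it in Il1rnKO 1, 2 and 3, against 29.0%, 30.5% and 34.0% in WT 1, 2 and 3. The knockout libraries thus lay within about a point of each other, Il1rnKO 3 included. H2-Q4 supplied 24.01% to 26.0% in knockout and 34.1% to 37.4% in wild type. The H2-Q5 share was 7.46% to 8.41% in knockout and 8.21% to 9.37% in wild type. Shares add up to the whole, so a larger share of H2-Q6 and H2-Q7 lowers the others.

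Setting members against H2-Q4 in the same library removes any factor common to the library. H2-Q7 was at 1.26, 1.41 and 1.22 times the count of H2-Q4 in Il1rnKO 1, 2 and 3, against 0.501, 0.551 and 0.622 times in WT 1, 2 and 3. H2-Q6 was at 0.604 to 0.680 times H2-Q4 in knockout and 0.276 to 0.376 times in wild type. For H2-Q5 the ratio was 0.295 to 0.350 in knockout and 0.241 to 0.251 in wild type. All 3 ratios stood apart between the groups, and all 3 share H2-Q4 as the divisor.

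**Figure D3:**
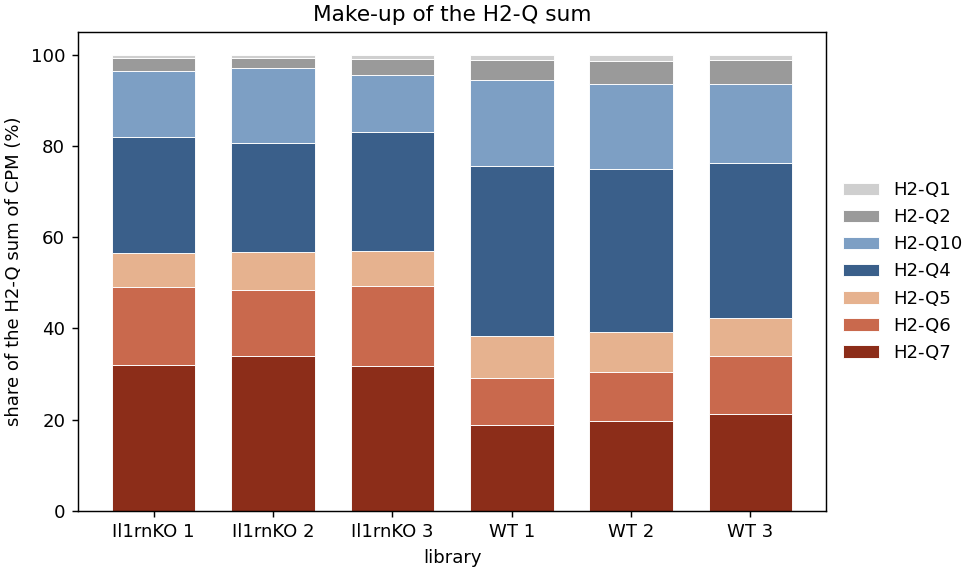
Share of each H2-Q gene in the family's sum of TMM-scaled CPM (percent), in each of the 3 Il1rnKO libraries (left) and 3 WT libraries (right). H2-Q7 and H2-Q6 at the foot of each bar make up 48.3% to 49.3% in knockout and 29.0% to 34.0% in wild type.

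Levels of different genes can be set side by side only per length. Per kilobase of the longest coding transcript, H2-Q7 ranked highest in knockout at 513 ± 69.7 CPM per kilobase, followed by H2-Q4 at 330 ± 27.3. In wild type H2-Q4 ranked highest at 296 ± 23.1 CPM per kilobase and H2-Q7 followed at 197 ± 10.195 (SD, n = 3 each). In both comparisons the ranges over libraries did not overlap. H2-Q5, H2-Q6 and H2-Q10 came next in knockout, at 187 ± 26.1, 185 ± 17.5 and 173 ± 40.7 CPM per kilobase, and did not differ beyond their spread. In wild type H2-Q10 and H2-Q5, at 136 ± 8.56 and 130 ± 13.2 CPM per kilobase, overlapped too, and H2-Q6 was below both at 80.4 ± 8.78.

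H2-Q2 at 52.9 ± 7.67 CPM per kilobase in knockout and 58.1 ± 3.63 in wild type, and H2-Q1 at 8.49 ± 0.828 in knockout and 8.34 ± 1.46 in wild type, came last. The order of the higher members depends on the length used. All annotated exons together came to 4265 bases in H2-Q7 and 4348 in H2-Q10, against 1497 and 1991 in their longest coding transcripts. Over all annotated exons, H2-Q4 ranked first in both genotypes. H2-Q6 and H2-Q7 came next in knockout, at 185 ± 17.5 and 180 ± 24.5 CPM per kilobase, above H2-Q5 at 117 ± 16.4 and H2-Q10 at 79.1 ± 18.6. By this length wild-type H2-Q6, at 80.4 ± 8.78 CPM per kilobase, overlapped H2-Q5 at 81.8 ± 8.26 and was above H2-Q10 at 62.4 ± 3.92. The longest coding transcript of H2-Q5 held only its 998 coding bases.

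Across the 6 libraries the members did not vary as one. Pearson's r of log2 CPM over the 21 pairs ran from -0.84 to 0.98, highest for H2-Q6 with H2-Q7. Within genotypes, after each group's mean was removed, that pair had an r of 0.45, whereas H2-Q5 with H2-Q10 had 0.91, H2-Q7 with H2-Q10 had 0.86 and H2-Q4 with H2-Q5 had 0.84. H2-Q2 had negative values within genotypes with most members, from -0.84 with H2-Q5 to -0.06 with H2-Q1, and 0.48 with H2-Q6. H2-Q1 was negative with every other member within genotypes, down to -0.71 with H2-Q6. These are descriptions over 6 points that share each library's depth, composition and any divided reads.

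The genes most like the family sum over the 6 libraries were Mtfmt (r = 0.989), Ctns (0.988), Stk16 (0.986), Stk19 (0.984) and Lclat1 (0.981). Mtfmt encodes a mitochondrial methionyl-tRNA formyltransferase, Ctns the lysosomal cystine transporter, Stk16 a serine/threonine kinase and Lclat1 a lysocardiolipin acyltransferase. They were picked for likeness to a sum whose groups do not overlap, which sets the separation of their own groups, and none passed the edgeR test over all genes. Their log2 fold changes ran from 0.30 for Lclat1 to 0.98 for Ctns. Stk19 and Lclat1 are on chromosome 17, and Stk19 lies in the MHC itself.

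The other genes of class I presentation were counted as lists, to be read against all genes tested, of which 0.0523% were called and 4.08% had an unadjusted p under 0.05. At those shares a count of 0 in a list of this size is near the background. Of 17 tested genes of antigen presentation, 0 passed the edgeR test, 8 had positive and 9 negative log2 fold changes, and the median was -0.01, beside 0.02 over all genes. At an unadjusted p under 0.05 the count was also 0. The groups of both classical heavy chains overlapped, with H2-K1 at 1121, 1111 and 1326 CPM in Il1rnKO 1, 2 and 3 against 1113, 1119 and 1230 CPM in WT 1, 2 and 3. H2-D1, which lies on the H2-Q1 side of the cluster, was at 1807, 1493 and 1859 CPM in knockout against 1844, 1680 and 1774 CPM in wild type.

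Their log2 fold changes were 0.04 (SE 0.18) for H2-K1 and -0.04 (SE 0.19) for H2-D1. B2m, the light chain that all these molecules need, had -0.24 (SE 0.32), and Tap1, which pumps peptides into the endoplasmic reticulum, had 0.13 (SE 0.15). The members of this list with the smallest p were Hspa5, a chaperone, at -0.29 (SE 0.21), and Tapbpl, an editor of peptide loading, at 0.18 (SE 0.14).

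Other nonclassical class I and class I-like genes were counted as a separate list. Of its 23 genes 11 were tested, 7 with positive and 4 with negative log2 fold changes, a median of 0.05 and 0 past the edgeR test, also 0 at an unadjusted p under 0.05, again near the shares over all genes. H2-T23, which encodes the Qa-1 antigen, was at 534, 456 and 504 CPM in Il1rnKO 1, 2 and 3 against 516, 431 and 492 CPM in WT 1, 2 and 3. Its log2 fold change was 0.05 (SE 0.16), and that of H2-M3, which presents formylated bacterial peptides, was -0.07 (SE 0.18). H2-T24 had 0.28 (SE 0.17) and Mr1, which presents vitamin B metabolites, had 0.27 (SE 0.23).

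Regulators of class I transcription and interferon signalling formed the next list. Of 31 tested, 0 passed the edgeR test, 16 were positive and 15 negative, and the median log2 fold change was 0.00. The count at an unadjusted p under 0.05 was 0, against 4.08% of all genes. Nlrc5, the transactivator of class I genes, was at 503, 525 and 399 CPM in Il1rnKO 1, 2 and 3 against 486, 427 and 426 CPM in WT 1, 2 and 3, a log2 fold change of 0.09 (SE 0.17). In knockout Nlrc5, like H2-Q7, was lowest in Il1rnKO 3.

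Irf1, a transcription factor that acts on class I promoters, had a log2 fold change of -0.03 (SE 0.17). Ifng, interferon gamma itself, was at 115, 99.9 and 211 CPM in Il1rnKO 1, 2 and 3 against 169, 158 and 189 CPM in WT 1, 2 and 3, with overlapping groups. The smallest p belonged to Stat2 at 0.37 (SE 0.20) and to Ifngr1, a chain of the interferon gamma receptor, at -0.42 (SE 0.25).

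The last list held genes for the GPI anchor, by which Qa-2 can be held in the membrane. Of 26 tested, 12 were positive and 14 negative, the median log2 fold change was 0.00, and 0 passed the edgeR test or an unadjusted p under 0.05, beside 0.0523% and 4.08% of all genes. Pgap1, which trims a lipid from new anchors, was at 41.1, 42.2 and 45.8 CPM in Il1rnKO 1, 2 and 3 against 49.6, 54.8 and 55.1 CPM in WT 1, 2 and 3. Its groups did not overlap, and its log2 fold change was -0.30 (SE 0.14). Pigo, an enzyme of anchor synthesis, had -0.24 (SE 0.16).

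Around the cluster, 56 other tested genes start within 500 kb of a member, and 0 of them passed the edgeR test. They were 35 positive and 21 negative, with a median log2 fold change of 0.04. At an unadjusted p under 0.05 there were 5, and 4 of these were higher in the knockout. Over all genes tested, 4.08% were under that p in either direction and 2.53% were higher. The smallest p belonged to Gm8750, Gm16181 and Stk19. Stk19 (chromosome 17, 34823993 to 34836945) was at 29.2, 27.2 and 22.1 CPM in Il1rnKO 1, 2 and 3 against 16.3, 15.7 and 14.01 CPM in WT 1, 2 and 3. Its log2 fold change was 0.77 (SE 0.19).

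Gm8750 (ENSMUSG00000092560.2, 35400799 to 35403727), a processed pseudogene, lies inside the cluster between H2-Q5 and H2-Q6. It had 0 counts in every knockout library, against 79, 18 and 13 counts in WT 1, 2 and 3. Against a floor of 3 counts over the knockout libraries together, that is at least 38.6-fold lower in the knockout, for counting error only. WT 1 held 79 of the 110 wild-type counts, and without it the limit is at least 17.7-fold lower. A copy, Gm8752 (35445856 to 35448926), lies between H2-Q7 and H2-Q10 and had 154, 208 and 127 counts in Il1rnKO 1, 2 and 3 against 81, 152 and 48 counts in WT 1, 2 and 3. The transcripts were identical at every one of 1535 aligned bases, gaps not counted, and shared 1202 of the 1388 windows of 150 bases in Gm8750. Their sum was 154, 208 and 127 counts in Il1rnKO 1, 2 and 3 against 160, 170 and 61 counts in WT 1, 2 and 3, and the groups overlapped. How reads were divided between these copies was not given in the sources used here.

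Gm16181 (35220834 to 35224134), on the H2-Q1 side of the cluster, had 19, 33 and 18 counts in Il1rnKO 1, 2 and 3 against 0, 1 and 1 counts in WT 1, 2 and 3. The ratio of pooled scaled counts was 33.2, with an exact 95% interval of 8.86 to 280 that covers counting error only. Like Gm8750, it had a mean under 1 CPM in a group, as had 5 further neighbours. Of these, Apom, which encodes apolipoprotein M, averaged 1.55 CPM in knockout and 0.623 CPM in wild type, a log2 fold change of 1.31 (SE 0.84), which is above that of H2-Q6. Ddah2 had 1.13 (SE 0.74) and Hspa1l 0.92 (SE 0.77). The groups of all 5 overlapped. Apom, Ddah2 and Hspa1l were named after their values were seen.

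**Figure D4:**
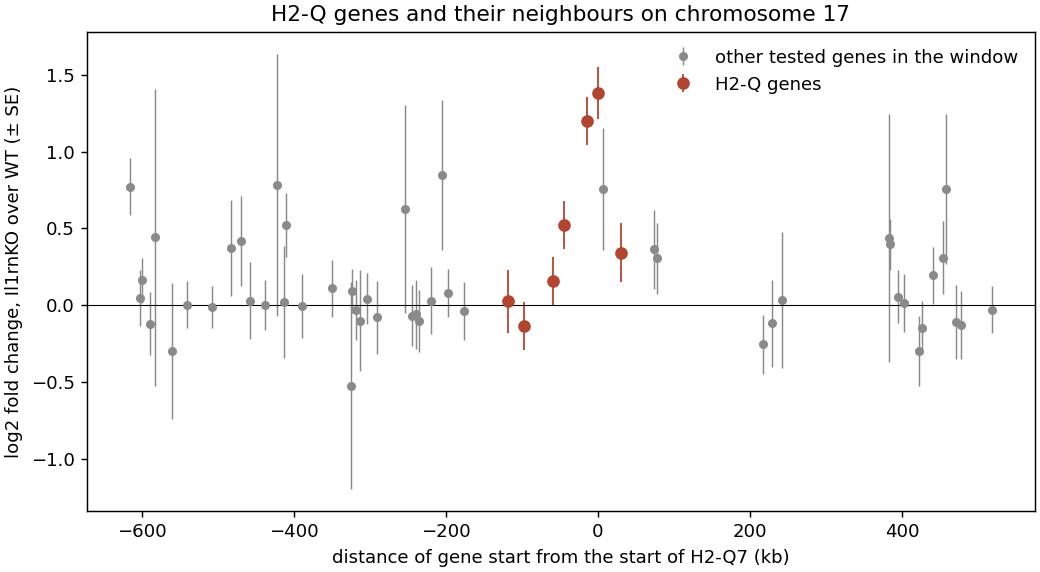
Log2 fold change (Il1rnKO over WT, bars ± SE) of the 7 H2-Q genes (red) and of 49 neighbours (grey) against the distance of each gene's start from that of H2-Q7 in kb; 7 neighbours with a mean under 1 CPM in a group are not drawn. H2-Q6 and H2-Q7 stand at 1.20 and 1.38 and the drawn neighbours lie between -0.52 and 0.85; undrawn ones reach further, among them Gm8750, Gm16181 and Apom (1.31).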

How the data were processed

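Estimated counts per gene, many with decimals and not scaled to a common total, were deposited by the authors for 6 poly(A) RNA libraries (3 knockout, 3 wild type) read in paired ends. Per the submitters' processing notes, reads were placed on GRCm38. How they were aligned and counted, and whether by strand, is not given in the sources used here. Counts were rounded to whole numbers. Symbols, positions and transcripts came from GENCODE M21 (34582 identifiers matched without version, 284 did not), and promoters from RefSeq (5 of 7 members matched by symbol).

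The genotypes were compared in R 4.3.3 with edgeR 4.0.16, using TMM, filterByExpr (minimum count 10, minimum total 15), two-sided quasi-likelihood test, Benjamini-Hochberg adjustment over 13374 genes, threshold 0.05. Fold changes are knockout over wild type. The fits were tested on simulated data. Library totals of 14102183 to 17677217 make 1 CPM of the plain total about 14 to 18 counts, before TMM scaling. Alternatives were other scalings and filters, a replicate block, each library left out, DESeq2 1.42.0 (without filterByExpr), limma 3.58.1 voom and a robust fit. Members, lists and motifs were chosen with earlier results of these data known. Named were all members, 10 class I and interferon genes (1 is not reported here), the 2 smallest p per list without a call, the 3 smallest p among neighbours, and the 5 protein-coding genes most correlated with the family sum (mean log2 CPM of at least 3). Gm8752 was added after its values were seen.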

Additional observations from a re-analysis of the deposited data

How the results depend on the processing

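The count of H2-Q members called, 2 with all libraries, ran from 0 to 2 when a library was left out, and stayed at 2 in the other fits. Over the whole table, 7 genes were called, against 58 with no filter and 25 with DESeq2, which was also run without the filter. With the filter, 11 were called with limma voom with quality weights, 11 with the replicate number as a block and 3 to 10 with a library left out. Same-numbered libraries had correlations of deviations from their group means of 0.108, 0.053 and 0.116, so the numbers were not taken as pairs, although each library correlated best with its own number; with the replicate block the family's log2 difference was 0.66. That difference, 0.67 with all members, was 0.24 without H2-Q6 and H2-Q7 and 1.32 for H2-Q6 and H2-Q7 only, and ran from 0.61 to 0.76 with a library left out. Scaling to plain library totals gave 0.77. H2-Q1 turned negative with limma voom (-0.083) and ran from -0.076 to 0.18 with a library left out. Among neighbours 1 gene, Gm8750, was called with no filter and with DESeq2, which was also run without the filter. The 4 gene lists had 0 calls in every fit. At this depth Il1rn, with 0 to 10 counts per library, could not check the labels.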
